A study of Homo sapiens with 6 samples.

Results

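The MYC/MAX network is the group of basic helix-loop-helix leucine zipper transcription factors that pair with MAX or with its relative MLX. A total of 10 of its genes, MYC, MYCN, MYCL, MAX, MXD1, MXD3, MXD4, MXI1, MNT and MLX, were taken by symbol from a table of 26184 genes and unannotated loci, and each was found once. RNA-seq had been carried out on 3 libraries of Huh7 P, parental cells of a human hepatocellular carcinoma line, labelled wild type and without treatment at time 0, and on 3 libraries of Huh7 LR. Huh7 LR was derived from Huh7 P under lenvatinib, a multikinase inhibitor, raised from 1 to 20 μM over 10 months, and is a single resistant line kept at 20 μM. The replicates are independent samples of these 2 lines, and whether the drug was present when the RNA was harvested is not stated. The genes were selected on the LR against P difference of these same counts, so those differences are a description: no p-value of a member is given, and nothing is read from counts of members past a threshold.

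MYC, MYCN and MYCL bind DNA as heterodimers with MAX and activate transcription, above all of genes for ribosome production, nucleotide synthesis and growth. MXD1, MXD3, MXD4, MXI1 and MNT also pair with MAX, bind the same hexamer, the E-box, and recruit SIN3 and histone deacetylases to repress transcription. MLX links this network to the glucose-sensing Mondo proteins MLXIP and MLXIPL. In the liver, MYC is a well-known oncogene of hepatocellular carcinoma, and MLXIPL, also called ChREBP, controls glycolytic and lipogenic genes.

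The shared DNA-binding property is written in the coding sequence. The following lines give the coding stretch of the basic region in 9 of the members (GENCODE release 29), and the capitals mark the first, the fifth and the ninth codon, where this protein family carries the side chains that touch the bases of the E-box.
MAX: CATaatgcactgGAAcgaaaacgtAGG
MYCN: CACaacatcctgGAGcgccagcgcCGC
MYCL: CACaacttcctgGAGcgcaagaggCGG
MXD1: CACaatgaaatgGAGaagaatagaCGG
MXD3: CACaatgaactgGAGaagcgcaggAGG
MXD4: CACaacgagctaGAAaagcacagaCGA
MXI1: CACaatgagctgGAAaagaatcgaCGA
MNT: CACaacaaattgGAGaagaacaggAGG
MLX: CACactcaggctGAGcagaagaggAGG
The searched codon spacing occurred at 1 place in each coding sequence. Of the 27 bases, MXI1 shared 17 with MAX, MYCL, MXD1 and MXD3 shared 16, MYCN and MNT shared 15, and MXD4 and MLX shared 13. MYCN and MYCL shared 22 of these bases, the 10 pairs of repressors 17 to 22 (median 20), and the 10 pairs of one activator and one repressor 14 to 18 (median 15).

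Some of these genes carry the letters of the E-box near their own start. In RefSeq promoter windows (250 bases before to 50 after the start, GRCh38.p14), CACGTG, read on both strands, lay in 3 of 12 member windows and in 7.26% of 35116 windows of all genes. The looser CANNTG, which includes CACGTG, lay in 8 of 12 member windows and in 68.7% of all windows. The windows with CACGTG were those of MXD4, MNT and MLX, and MYC was not among the windows. The MXD4 window is shown whole because MXD4 was the member with the highest level in Huh7 LR, with the E-box letters in capitals (chr4:2262060-2262359, minus strand), and the sites of MNT (chr17:2401228-2401273, minus strand) and MLX (chr17:42567030-42567075, plus strand) are shown with 20 bases on each side.
MXD4: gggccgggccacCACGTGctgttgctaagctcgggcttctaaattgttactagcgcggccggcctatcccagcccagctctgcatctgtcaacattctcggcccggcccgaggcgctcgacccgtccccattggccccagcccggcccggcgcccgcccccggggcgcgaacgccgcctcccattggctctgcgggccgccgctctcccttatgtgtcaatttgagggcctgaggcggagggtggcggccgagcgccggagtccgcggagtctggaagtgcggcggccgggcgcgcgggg
MNT: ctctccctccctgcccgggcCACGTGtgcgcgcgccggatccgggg
MLX: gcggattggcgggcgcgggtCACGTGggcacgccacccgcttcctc
Counted from the RefSeq start of the window, the hexamer began 238 bases before that of MXD4, 193 before that of MNT and 50 before that of MLX. The GENCODE gene coordinates given further on place the starts of these genes at other bases, nearer to the hexamer. A match of letters is not a bound site, and binding was not measured.

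The libraries were deep and alike in size. The counted reads totalled 62738937 to 71427573 in Huh7 P and 63233655 to 70768720 in Huh7 LR. Values per library are CPM (counts scaled to library size and TMM factor), and levels of different genes are compared only per length, in the authors' FPKM or, where named, in CPM per kb of annotated exon. Of 17531 genes and loci tested, an adjusted p under 0.05 was reached by 23.3% with the higher level in Huh7 LR and by 22.4% with the lower. A call, an adjusted p under 0.001 with more than a 2-fold difference, was reached by 4.43% higher and 1.78% lower. All 3 Huh7 LR libraries lay above all 3 Huh7 P libraries for 28.2% of the tested genes and loci and below them for 27.7%. The hepatocyte markers checked the label of the cells. ALB, the albumin gene, read 11687 to 14038 CPM in Huh7 P and 20272 to 21773 CPM in Huh7 LR, and HNF4A, a hepatocyte transcription factor, was present in every library. Of the 7 hepatocyte markers, 4 rose and 0 fell. The leukocyte markers TYROBP and HLA-DRA, the fibroblast markers DCN and THY1 and the endothelial markers CDH5 and KDR had 0 counts in all 6 libraries. At these depths, 0 counts allow up to 0.0420 to 0.0478 CPM (3 counts, counting error only). The remaining markers of these lists were detected in 1 or more libraries. COL1A1, a fibroblast marker, had 65 to 106 counts per library in Huh7 P and 254 to 404 in Huh7 LR, and was called higher. Among the leukocyte markers detected were PTPRC, at 0 to 15 counts per library, and CD14, at 116 to 242. Summed over the lists, leukocyte markers read 62.4 to 67.7 CPM in Huh7 P and 10.1 to 14.03 CPM in Huh7 LR, most of it LYZ, fibroblast markers 2.16 to 2.25 and 5.02 to 8.02 CPM, and endothelial markers 38.8 to 47.5 and 65.0 to 71.2 CPM, nearly all of it PECAM1. Of the tested markers of these lists, 1 of 3 leukocyte markers fell, and 2 of 2 fibroblast and 2 of 2 endothelial markers rose. The part of these markers in the results on the network was not tested.

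Across the members, MYC was much lower in Huh7 LR, MYCN, MYCL and MXD4 were higher, MXI1 was at 0.37 on the log2 scale, and the other 5 members lay between -0.17 and 0.16. Libraries of the lines did not overlap for 5 of the 10 members on the higher side (28.2% of all tested) and for 1 on the lower side (27.7%). The counts of members past an adjusted p of 0.05, 4 higher (23.3% of all) and 1 lower (22.4%), and past the call, 0 higher (4.43%) and 1 lower (1.78%), test nothing, since the list was drawn up on this contrast. In bulk RNA, fewer cells that express a gene and less of its RNA per cell cannot be told apart.

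Among the activators, MYC (chr8:127735434-127741434, plus strand, GRCh38, ENSG00000136997), the main oncogene of the family, stood at 93.0, 83.5 and 81.5 CPM in the Huh7 P libraries, against 34.0, 30.2 and 25.8 CPM in the Huh7 LR libraries. Every Huh7 LR library lay below every Huh7 P library, with a wide gap. The means were 86.0 ± 6.13 and 30.0 ± 4.10 CPM (SD, n = 3). The log2 fold change was -1.52 ± 0.10 (SE), or a level 2.86-fold higher in Huh7 P. The log2 fold change lay between -1.62 and -1.42 under all 15 alternative settings, and MYC was the only member that differed by more than 2-fold.

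MYCN (chr2:15940564-15947007, plus strand), the family member best known from neuroblastoma, showed the opposite direction. It stood at 44.0, 41.1 and 39.4 CPM in Huh7 P and at 71.6, 66.8 and 69.0 CPM in Huh7 LR. The lines were well separated, with the lowest Huh7 LR library above the highest Huh7 P library. The log2 fold change was 0.74 ± 0.07, or 1.67-fold. MYCL (chr1:39895426-39902256, minus strand), the least abundant of the family, was at 1.92, 2.22 and 1.71 CPM in Huh7 P and at 3.11, 2.93 and 3.11 CPM in Huh7 LR. The difference on the log2 scale was 0.64 ± 0.17 and moved between 0.31 and 0.75 over the alternatives, the lowest value being that on log2(FPKM + 1), a scale that compresses genes at a low level.

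**Figure D1:**
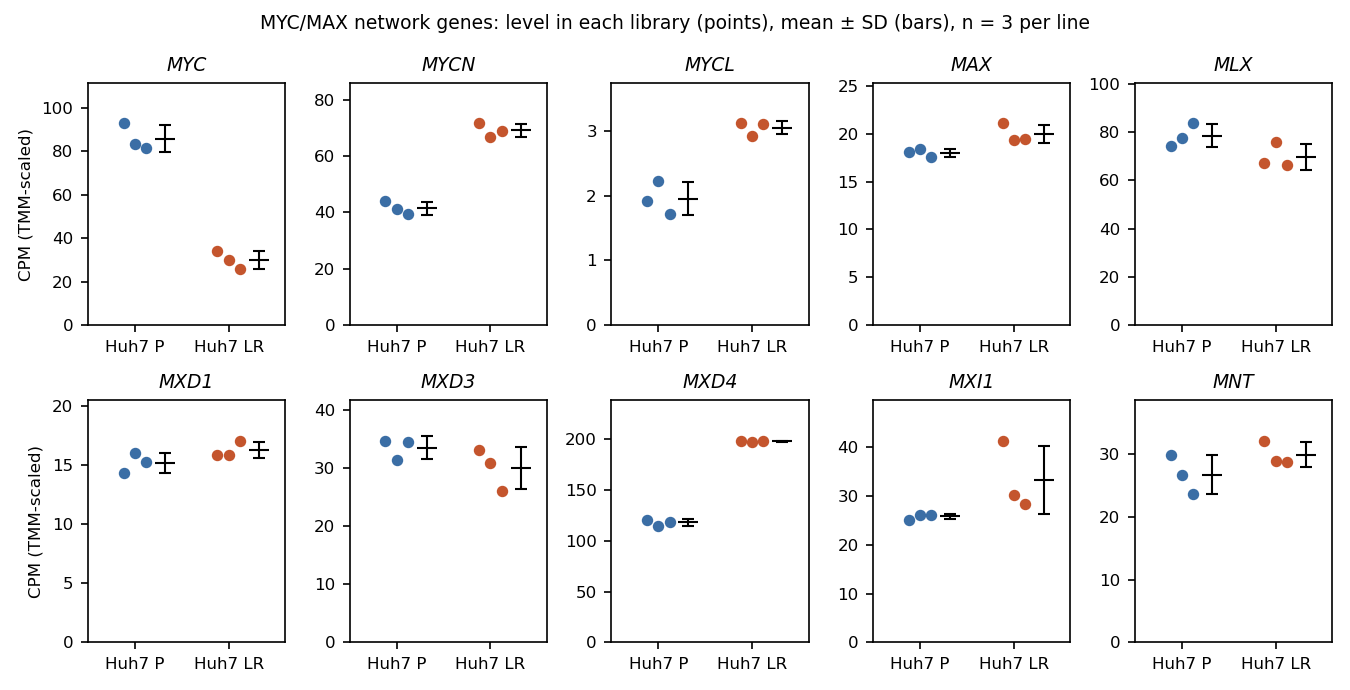
Level of each of the 10 members in CPM (y axis, from 0, with its own scale in each panel) in the 3 Huh7 P and 3 Huh7 LR libraries (points), with the mean and SD beside them. The points of MYC separate downwards, from 81.5 CPM or more to 34.0 CPM or less, those of MYCN, MYCL and MXD4 separate upwards, and one Huh7 LR library stands above the other two for MXI1.

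The shared partners were steady by comparison. MAX (chr14:65006174-65102695, minus strand), the obligate partner of activators and repressors alike, stood at 18.0, 18.4 and 17.6 CPM in Huh7 P and at 21.1, 19.4 and 19.4 CPM in Huh7 LR. The libraries did not overlap in CPM, but in FPKM they did, with 8.32 to 8.90 in Huh7 P and 8.24 to 9.18 in Huh7 LR. The log2 fold change of MAX was 0.15 ± 0.08. MLX (chr17:42567068-42573239, plus strand) read 74.0, 77.6 and 83.5 CPM in Huh7 P and 67.1, 75.9 and 66.2 CPM in Huh7 LR, so that the lines overlapped. Its log2 fold change was -0.17 ± 0.08. Without Huh7 LR replicate 2, the library in which MLX was highest of that line, it was -0.23.

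The repressors were led by MXD4 (chr4:2247432-2262294, minus strand), which is known as a gene of cells that leave the cell cycle and differentiate. MXD4 stood at 121, 115 and 118 CPM in Huh7 P and at 198, 197 and 198 CPM in Huh7 LR. The Huh7 LR libraries were almost identical, and all lay far above Huh7 P. The means were 118 ± 3.14 and 198 ± 0.83 CPM (SD, n = 3), and the estimate on the log2 scale was 0.74 ± 0.06, or 1.68-fold. This was the smallest standard error of the 10 members, and the value stayed between 0.73 and 0.80 over the alternatives.

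MXI1 (chr10:110207605-110287365, plus strand), also known as MXD2, was less even. Its values were 25.2, 26.0 and 26.2 CPM in Huh7 P and 41.3, 30.2 and 28.4 CPM in Huh7 LR. The Huh7 LR libraries were all above Huh7 P, and replicate 1 stood apart from the other two. The log2 fold change was 0.37 ± 0.12 with all libraries and 0.18 without Huh7 LR replicate 1.

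MXD1, MXD3 and MNT overlapped between the lines. MXD1 (chr2:69897688-69942945, plus strand), the founding MXD gene, read 14.3, 15.98 and 15.2 CPM in Huh7 P and 15.8, 15.9 and 17.0 CPM in Huh7 LR (log2 fold change 0.10 ± 0.09). MNT (chr17:2384060-2401118, minus strand), the most widely expressed MAX-binding repressor, read 29.8, 26.7 and 23.6 CPM in Huh7 P and 32.2, 28.9 and 28.7 CPM in Huh7 LR (log2 fold change 0.16 ± 0.10). MXD3 (chr5:177301461-177312757, minus strand), an MXD gene linked to S phase, read 34.8, 31.3 and 34.6 CPM in Huh7 P and 33.1, 30.9 and 26.0 CPM in Huh7 LR (log2 fold change -0.16 ± 0.10). The value of MXD1 was 0.06 without Huh7 P replicate 1 or without Huh7 LR replicate 3, and 0.03 with the counts of overlapping genes summed. Without Huh7 P replicate 1 or 3 the value of MNT was 0.25 or 0.08, and without Huh7 LR replicate 3 that of MXD3 was -0.07.

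Some members share exon bases with a neighbour, and it is not stated whether the reads were counted by strand. MXD3 shares 926 exon bases with RAB24 on its own strand and 1158 with PRELID1 on the opposite strand. The counts of PRELID1 were 10474, 9714 and 10968 for Huh7 P, against 5860, 8803 and 7370 for Huh7 LR, so that all Huh7 LR libraries were below Huh7 P. When the counts of genes overlapping on either strand were summed, a setting chosen after the data had been seen, the sum of MXD3, RAB24 and PRELID1 had a log2 fold change of -0.37. PRELID1 has the largest counts of that sum, so the value is not one of MXD3 itself. MXD1 shares 237 exon bases with SNRNP27 on its strand, and MLX shares 770 with PSMC3IP on the opposite strand. MYC has no such neighbour among the genes of the table.

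**Figure D2:**
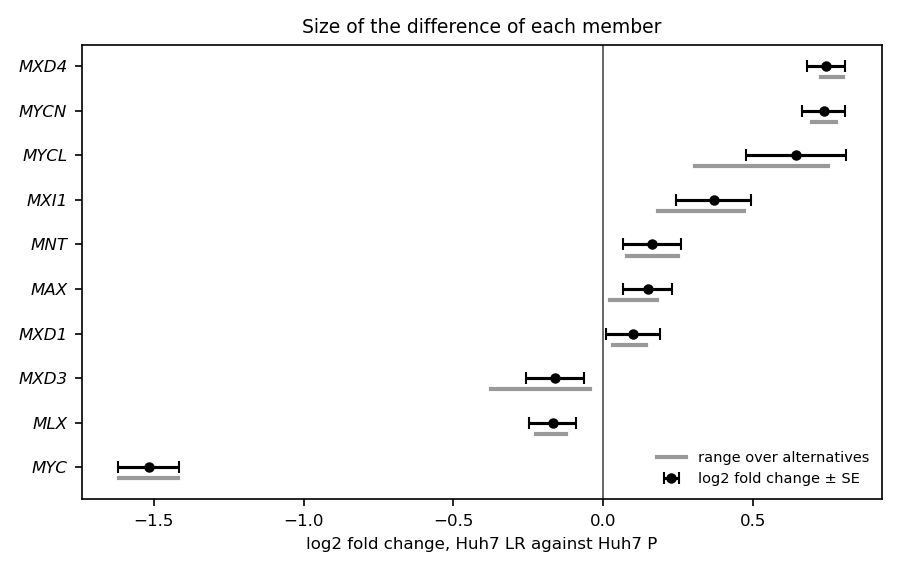
Log2 fold change of each member, Huh7 LR against Huh7 P (x axis), as the estimate with its SE (points and black bars) and the range over 15 alternative settings (grey bars). MYC lies alone at -1.52, MXD4, MYCN and MYCL lie at 0.74, 0.74 and 0.64, and no grey bar crosses 0. For MXD1, MXD3 and MLX the settings include sums with overlapping genes, and the low end of the MXD3 bar is such a sum.

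Per transcript length, the order of the members changed at its head. In Huh7 P, MYC was highest at 34.6 ± 2.95 FPKM (SD, n = 3), ahead of MLX at 30.0 ± 1.69, MXD4 at 28.6 ± 0.69, MXD3 at 17.3 ± 1.045 and MYCN at 14.7 ± 0.94 FPKM. MAX at 8.66 ± 0.31 and MXI1 at 8.24 ± 0.51 FPKM followed, then MNT at 4.91 ± 0.62, MXD1 at 2.50 ± 0.11 and MYCL at 0.58 ± 0.09 FPKM. Of neighbours in this order, MLX and MXD4 overlapped between their libraries, and so did MAX and MXI1, and the others did not. In Huh7 LR, MXD4 was highest at 49.96 ± 0.82 FPKM, with all libraries above any library of MLX at 27.2 ± 1.78 FPKM. MYCN came next at 24.9 ± 1.08, overlapping with MLX, then MXD3 at 15.8 ± 1.70, MYC at 12.4 ± 1.75 and MXI1 at 11.0 ± 2.19 FPKM, where MYC overlapped with both MXD3 and MXI1. MAX at 8.83 ± 0.51, MNT at 5.61 ± 0.41, MXD1 at 2.75 ± 0.11 and MYCL at 0.95 ± 0.04 FPKM closed the order without overlap between neighbours. In FPKM, MYC went from the first place to the fifth, and MYCN from the fifth to the third. When CPM was divided by the exon length of the annotation in place of the authors' FPKM, MYC still led in Huh7 P and MXD4 in Huh7 LR, but MYC went from the first place to the fourth and MYCN from the fourth to the second, with MXD3 behind MYCN in Huh7 P and behind MYC and MXI1 in Huh7 LR.

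**Figure D3:**
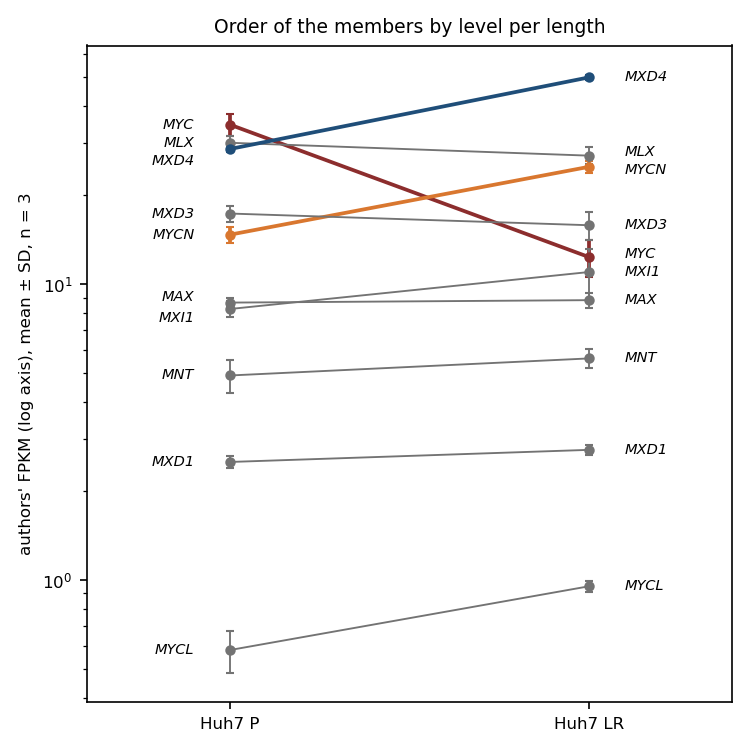
Mean level of the 10 members in FPKM (y axis, log scale) in Huh7 P and Huh7 LR, with SD over 3 libraries as bars. The lines of MYC and MXD4 cross: MYC goes from 34.6 to 12.4 FPKM and MXD4 from 28.6 to 49.96 FPKM, while MAX stays near 8.66 and 8.83 FPKM.

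The make-up of the MYC family was reversed between the lines. MYC gave 69.9%, 68.8% and 69.2% of the summed FPKM of MYC, MYCN and MYCL in the libraries of Huh7 P but 34.4%, 33.2% and 29.1% in those of Huh7 LR. MYCN gave 28.99%, 29.8% and 29.7% in Huh7 P, against 63.3%, 64.3% and 68.1% in Huh7 LR. MYC thus supplied the larger share in every Huh7 P library and MYCN in every Huh7 LR library. The ratio of MYC to MYCN was 2.35 ± 0.05 in Huh7 P and 0.50 ± 0.06 in Huh7 LR (SD, n = 3). Since MYCN was higher where MYC was lower, the sum of the family differed less than MYC did, with 49.8 ± 3.92 FPKM in Huh7 P and 38.2 ± 2.49 FPKM in Huh7 LR, and the libraries of the lines did not overlap.

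The repressors together moved the other way, mainly through MXD4, which had a mean of 28.6 FPKM in Huh7 P and 49.96 FPKM in Huh7 LR. The mean of MXD3 went from 17.3 to 15.8 FPKM, and those of MXD1, MXI1 and MNT were higher in Huh7 LR by smaller amounts. MXD1, MXD3, MXD4, MXI1 and MNT summed to 63.2, 60.2 and 61.5 FPKM in Huh7 P and to 89.7, 83.5 and 82.2 FPKM in Huh7 LR. MXD4 alone was 46.5% ± 0.17 of that sum in Huh7 P and 58.8% ± 2.75 in Huh7 LR. The summed activators stood to the summed repressors as 0.86, 0.81 and 0.76 in Huh7 P and as 0.46, 0.44 and 0.44 in Huh7 LR, and the ratio of MYC to MXD4 was 1.21 ± 0.08 against 0.25 ± 0.04. Which group was in excess in Huh7 P depended on the measure of length. By CPM per kb of exon the activators stood to the repressors as 1.38, 1.31 and 1.24 in Huh7 P and as 0.80, 0.79 and 0.79 in Huh7 LR, so that the ratio was lower in Huh7 LR on both scales but began above 1 on this one. Against MAX, the MYC family stood at 5.77 ± 0.65 in Huh7 P and 4.33 ± 0.21 in Huh7 LR by FPKM, and at 11.07 ± 0.68 and 8.25 ± 0.09 by CPM per kb of exon. These ratios are of RNA, and the amounts of the proteins, which compete for MAX, were not measured here.

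**Figure D4:**
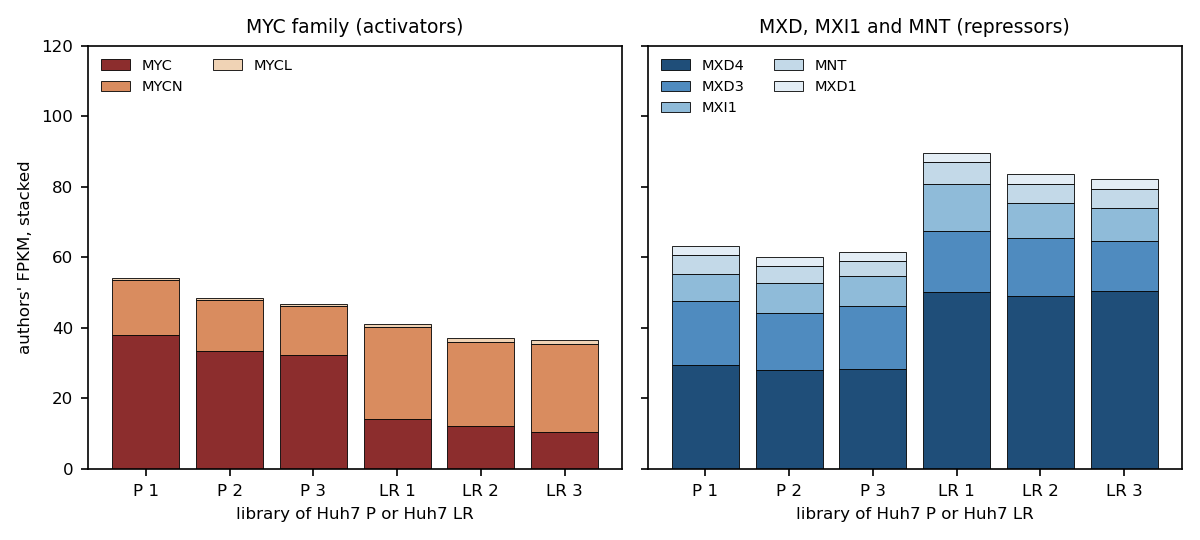
Stacked FPKM (y axis, from 0) of the MYC family (left) and of the MXD, MXI1 and MNT repressors (right) in each of the 6 libraries. On the left the sum is 46.7 to 54.2 FPKM in Huh7 P and 36.5 to 41.1 FPKM in Huh7 LR, with MYC the larger block in the former and MYCN in the latter, and on the right the MXD4 block is taller in every Huh7 LR library.

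The other genes of the network were measured alongside. MLXIPL, the ChREBP gene, rose from 30.7, 24.4 and 28.6 CPM in Huh7 P to 91.3, 69.0 and 78.1 CPM in Huh7 LR. The lowest Huh7 LR library was far above the highest Huh7 P library. The log2 fold change was 1.51 ± 0.11 (adjusted p = 2.84e-06), and MLXIPL was called higher. MLXIP, which encodes MondoA, fell, at -0.43 ± 0.08 on the log2 scale (adjusted p = 0.00148), and MGA, a large MAX-binding repressor, fell by 0.44 on the log2 scale (adjusted p = 0.00489). Of 10 genes known as targets of MLX and the Mondo proteins, 4 rose and 1 fell (23.3% and 22.4% of all tested), with a median log2 fold change of 0.16 beside 0.0046 over all 17531 tested. PKLR, the liver pyruvate kinase, rose by 0.72 ± 0.18 on the log2 scale (adjusted p = 0.00837), SCD, a fatty acid desaturase, by 0.31 ± 0.08 (adjusted p = 0.011), and ACACB, an acetyl-CoA carboxylase, by 0.28 ± 0.07 (adjusted p = 0.00653). TXNIP, a glucose-responsive arrestin-like gene, read 54.1, 56.5 and 61.5 CPM in Huh7 P and 114, 64.4 and 78.4 CPM in Huh7 LR, with replicate 1 again highest. Its log2 fold change was 0.58 ± 0.16 (adjusted p = 0.0138), and 0.32 without that library. The adjusted p was above 0.05 without Huh7 P replicate 1 and with DESeq2. GPD1, which links glycolysis to glycerolipid synthesis, fell by 1.06 on the log2 scale (adjusted p = 0.00132), while ACLY at -0.02 ± 0.07 and FASN at 0.28 ± 0.12 did not pass the test.

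Genes known to be activated by MYC were mostly lower in Huh7 LR in each of 5 lists. Of 82 tested, 70 fell, 1 rose and 11 did not pass an adjusted p of 0.05, beside 22.4% lower among all genes and loci tested. The median log2 fold change was -0.50 over the 82 genes and 0.0046 over all tested, and 76 of the 82 estimates were below 0, compared with 49.6% of all. The lists were written from general knowledge with earlier results on MYC in these libraries known. Only 3 of the 82 were called, all lower, so that most of these differences were under 2-fold.

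The nucleolar genes, which make and assemble ribosomes, were nearly all lower. Of 24, 23 fell and 0 rose, and the median log2 fold change was -0.57. DDX21, an RNA helicase of rRNA processing, fell from 313, 330 and 338 CPM to 180, 143 and 170 CPM, a log2 fold change of -0.99 ± 0.09 (adjusted p = 8.49e-06). NOP58, a core protein of box C/D snoRNPs, and UTP20, of the small subunit processome, had log2 fold changes of -0.85 ± 0.09 (adjusted p = 2.35e-05) and -0.85 ± 0.07 (adjusted p = 6.16e-06). NIP7 was the gene that did not pass, at -0.18 ± 0.09, and in all 24 genes, NIP7 included, the 3 Huh7 LR libraries lay below the 3 Huh7 P libraries. Summed over the list, Huh7 P libraries held 4942 to 5220 CPM and Huh7 LR libraries 3354 to 3650 CPM.

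Translation factors and chaperones behaved alike, with 15 of 15 lower and a median of -0.57. EEF1E1, of the aminoacyl-tRNA synthetase complex, had -0.85 ± 0.09 (adjusted p = 2.54e-05), HSPD1, the mitochondrial chaperonin, -0.79 ± 0.07 (adjusted p = 6.5e-06) and TFAM, the mitochondrial transcription factor, -0.67 ± 0.09 (adjusted p = 0.000133).

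In nucleotide and polyamine synthesis, 14 of 16 tested genes fell and 1 rose, with a median of -0.44, and 1 further gene of the list, PRPS2, had 0 counts in all libraries. PPAT, the first committed step of purine synthesis, read 94.1, 91.6 and 95.6 CPM in Huh7 P and 44.8, 39.0 and 49.8 CPM in Huh7 LR (log2 fold change -1.07 ± 0.09, adjusted p = 4.83e-06). The folate enzymes MTHFD1, at -1.06 ± 0.08 (adjusted p = 2.08e-06), and MTHFD2, at -0.98 ± 0.12 (adjusted p = 7.11e-05), followed. PPAT and MTHFD1 were past the 2-fold call. ODC1, the rate-limiting enzyme of polyamine synthesis and a classical MYC target, fell by 0.80 on the log2 scale. SHMT1, the cytosolic serine hydroxymethyltransferase, was the gene that rose, by 0.35 ± 0.07 (adjusted p = 0.00127).

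In glucose and amino acid use, 9 of 13 fell and 0 rose, with a median of -0.45. SLC7A5, a transporter of large neutral amino acids, fell from 175, 161 and 153 CPM to 50.2, 69.6 and 48.2 CPM. The lines were far apart, and the log2 fold change was -1.54 ± 0.13 (adjusted p = 5.19e-06) beside -1.52 for MYC itself. SLC1A5, a glutamine transporter, had -0.88 ± 0.07 (adjusted p = 3.32e-06) and LDHA, lactate dehydrogenase, -0.54 ± 0.07 (adjusted p = 0.000112). SLC3A2, the heavy chain that pairs with SLC7A5, was at 0.03 ± 0.08, TFRC, the transferrin receptor, at 0.05 ± 0.07 and PFKM, phosphofructokinase, at 0.02 ± 0.07, and these were among the genes that did not pass the test.

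Of the cell cycle targets, 9 of 14 fell and 0 rose, with a median of -0.34. TERT, the catalytic subunit of telomerase, read 13.9, 11.9 and 12.4 CPM in Huh7 P and 6.43, 7.38 and 6.73 CPM in Huh7 LR (log2 fold change -0.90 ± 0.11, adjusted p = 8.41e-05). CDCA7, a MYC-responsive cell division gene, had -0.83 ± 0.08 (adjusted p = 1.08e-05) and CDC25A, a phosphatase that activates cyclin-dependent kinases, -0.68 ± 0.10 (adjusted p = 0.000197). CDK4, E2F1, CCNE1, MCM2 and MCM5 did not pass the test, and CDK4 stood at 0.02 ± 0.07.

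Genes known to be repressed by MYC went mostly the other way. Of 10 tested, 7 rose, 1 fell and 2 did not pass, with a median log2 fold change of 0.61, beside 23.3% higher among all genes and loci tested. CDKN1A, the p21 inhibitor of cyclin-dependent kinases, rose from 34.2, 37.4 and 34.1 CPM to 78.2, 68.2 and 66.8 CPM, a log2 fold change of 1.01 ± 0.08 (adjusted p = 4.39e-06). The growth arrest genes GADD45G, at 1.54 ± 0.24 (adjusted p = 0.000387), and GADD45A, at 0.96 ± 0.10 (adjusted p = 3.35e-05), rose too, and so did NDRG1 at 0.64 ± 0.07 and CEBPA, a hepatocyte transcription factor, at 0.58 ± 0.07. GADD45G was scarce, at 0.59 to 0.81 CPM in Huh7 P. CDKN1B, the p27 inhibitor, fell by 0.24 on the log2 scale (adjusted p = 0.0111), and did not pass 0.05 without Huh7 P replicate 2 or without Huh7 P replicate 3. PDGFRB, another of the 7, is also on the fibroblast list.

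**Figure D5:**
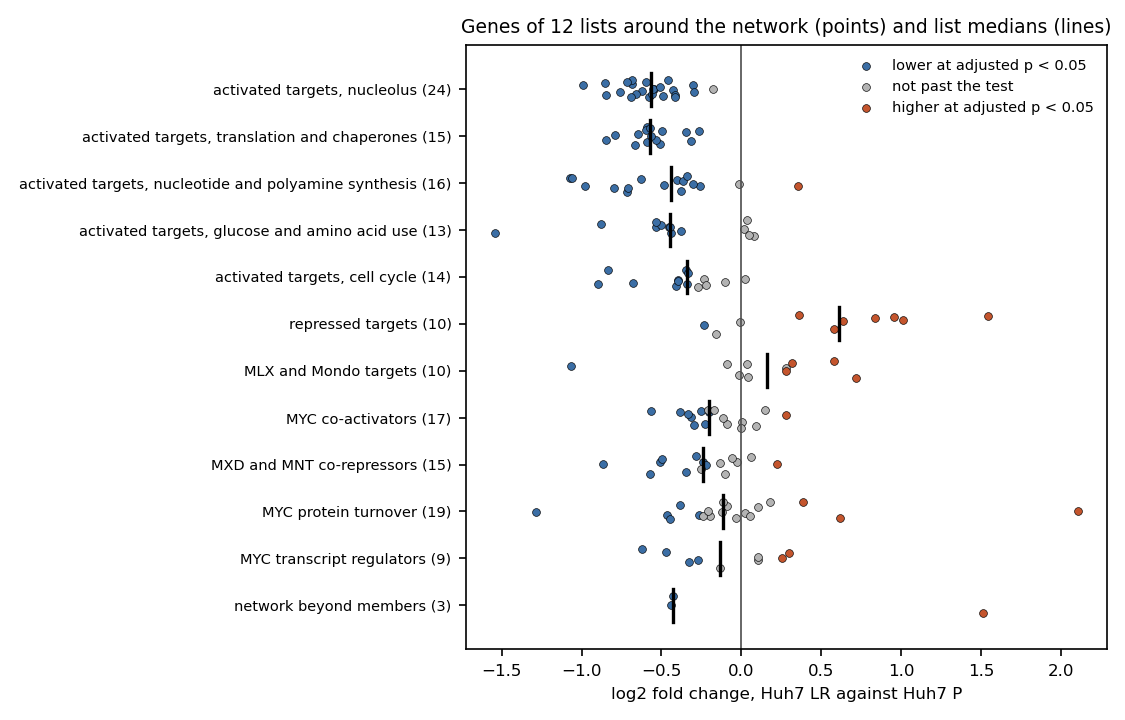
Log2 fold change, Huh7 LR against Huh7 P (x axis), of the tested genes of 12 lists around the network (number tested in brackets), as points coloured by the edgeR test, with the median of each list as a black line. The 5 lists of activated targets have medians from -0.57 to -0.34, the repressed targets 0.61, and the cofactor lists lie nearer to 0.

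The cofactors of the network differed by smaller amounts. Of 17 co-activators of MYC, 8 fell and 1 rose, beside 22.4% lower and 23.3% higher among all tested, with a median of -0.20. RUVBL1 and RUVBL2, the ATPases of the TIP60 complex, had -0.57 ± 0.08 (adjusted p = 0.000238) and -0.33 ± 0.08 (adjusted p = 0.00542), and ACTL6A, an actin-like subunit of chromatin remodellers, -0.38 ± 0.07 (adjusted p = 0.00153). CDK9, the kinase of P-TEFb, rose by 0.28 ± 0.07 (adjusted p = 0.00844), and did not pass 0.05 without Huh7 P replicate 2. EP300, CREBBP and TRRAP did not pass the test. The count of 8 was 4 without Huh7 P replicate 1 or 2, 5 without Huh7 LR replicate 1 or 3, and 4 on log2(FPKM + 0.1).

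Of 15 co-repressors that MXD proteins and MNT recruit, 8 fell and 1 rose, against the same 22.4% and 23.3%, with a median of -0.24. ARID4B and ARID4A, subunits of the SIN3 complex, had -0.86 ± 0.08 (adjusted p = 7.75e-06) and -0.57 ± 0.09 (adjusted p = 0.000287), and the deacetylases HDAC2 and HDAC1 had -0.51 ± 0.07 (adjusted p = 0.000192) and -0.35 ± 0.09 (adjusted p = 0.00689). HDAC2 did not pass on the FPKM scales. SIN3B rose by 0.22 ± 0.08 (adjusted p = 0.0411) with overlapping libraries, and did not pass 0.05 without Huh7 P replicate 2 or 3 and without Huh7 LR replicate 2 or 3. SIN3A at -0.10 ± 0.06 did not pass. The count of genes that fell was 5 without Huh7 P replicate 2.

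Genes that act on the MYC protein were mixed, with 5 of 19 lower, 3 higher and a median of -0.12, shares near the 22.4% and 23.3% of all tested. CIP2A, which protects MYC from dephosphorylation by PP2A, fell from 118, 124 and 131 CPM to 45.7, 48.7 and 58.8 CPM, a log2 fold change of -1.29 ± 0.10 (adjusted p = 2.55e-06). AURKA, a kinase that stabilises MYCN, had -0.47 ± 0.09 (adjusted p = 0.0018) and SET, an inhibitor of PP2A, -0.45 ± 0.07 (adjusted p = 0.000302). SKP2, an F-box protein that ubiquitinates MYC, rose by 0.62 ± 0.07 (adjusted p = 5.29e-05), and STUB1, a chaperone-linked ubiquitin ligase, by 0.39 ± 0.08 (adjusted p = 0.00295). FBXO32 was called higher but stayed under 1 CPM in every library. FBXW7, the ligase that recognises phosphorylated MYC, was at 0.02 ± 0.09 and did not pass.

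Of 9 listed regulators of the MYC transcript, 4 fell and 2 rose, with a median of -0.13, beside 22.4% lower and 23.3% higher among all tested. FUBP1, which binds the far upstream element of MYC, had -0.62 ± 0.08 (adjusted p = 0.000161), CNBP -0.33 ± 0.08 (adjusted p = 0.00491) and IGF2BP1, an RNA-binding protein that stabilises MYC mRNA, -0.47 ± 0.09 (adjusted p = 0.00151). Its paralogues IGF2BP2 and IGF2BP3 rose, by 0.30 ± 0.07 (adjusted p = 0.00596) and 0.25 ± 0.08 (adjusted p = 0.0273). The count of 2 was 1 without Huh7 P replicate 1 or 2 and without Huh7 LR replicate 1 or 3. PVT1, CASC11 and CCAT1, long non-coding RNAs of the MYC region, were not analysed here.

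Genes near the members were read next. Within 1 Mb of the start of MYC, the table held 1 annotated gene, POU5F1B, which had 6 to 16 counts per library and was not tested. Around MYCN, 3 genes were tested, a region chosen after its values had been seen. FAM49A, which starts 726 kb beyond MYCN, rose from 0.38, 0.31 and 0.29 CPM to 9.31, 6.42 and 6.90 CPM, or from 19 to 27 counts to 450 to 607 counts per library. The estimate was 4.52 ± 0.21 on the log2 scale (adjusted p = 1.7e-07), far beyond that of MYCN. NBAS, which starts 379 kb before MYCN, rose by 0.19 ± 0.07 (adjusted p = 0.0446), and did not pass 0.05 in 7 of 13 alternatives, while DDX1, 349 kb before it, fell by 0.38 on the log2 scale (adjusted p = 0.000834). Around MXD4, 1 of 25 tested genes rose and 8 fell, where 23.3% and 22.4% of all tested did. TMEM129 was the one that rose, by 0.46 ± 0.08 (adjusted p = 0.000633), and NAT8L had the largest difference of those that fell, at -1.36 ± 0.10 (adjusted p = 2.6e-06).

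The genes whose CPM followed MYC most closely over the 6 libraries were FAM129B, FKBP4, a co-chaperone of HSP90, and ZNF331, with Pearson's r of log2 CPM of 0.9991, 0.9990 and 0.9989, the highest among 13226 annotated genes compared. With 3 libraries in each of 2 lines, r is set mainly by the difference between the lines, and 15.3% of the genes compared had an r above 0.9. FAM129B read 104, 100.4 and 98.3 CPM in Huh7 P and 68.9, 63.5 and 59.8 CPM in Huh7 LR, with the libraries of each line in the order of MYC. Because FAM129B was picked for its r over these same libraries, that order is no separate likeness. The log2 fold change of FAM129B, -0.66 ± 0.07, was smaller in size than that of MYC.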

How the data were processed

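RNA was sequenced from 3 Huh7 P and 3 Huh7 LR samples, grouped by their titles. The authors deposited 1 table with a raw read count and an FPKM value per gene and library; the counts are as the authors deposited them, without normalization, and in the FPKM values the authors divided by length and library size. The kit (NEBNext Ultra, poly(A) selection) is given in the labels, whose extraction text describes an insect although the identifiers are human. The submitters' processing notes name TopHat2, Cufflinks and DESeq and the mouse build mm10; how they were applied, and whether counting used strand, is not given in the sources used here. All 19974 annotated identifiers were found in GENCODE release 29 (GRCh38), the source of coordinates, exon lengths and coding sequences. A further 34 lines of text carried no counts, and 6210 rows are unannotated loci, with 2.86% to 3.35% of the counts.

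Counts were tested in R 4.3.3 with edgeR 4.0.16 (filterByExpr with minimum count 10 and minimum total 15, TMM factors 0.977 to 1.03, quasi-likelihood test, Benjamini-Hochberg adjustment over 17531 genes and loci). The SE of an estimate is its size over the square root of its F statistic. Members and lists were chosen with earlier results of these data known, so the members' differences are a description. Named genes are all members, up to 3 genes per list and direction with the largest differences (adjusted p under 0.05, at least 1 CPM in one line, no overlap), tested genes within 1 Mb of MYC and the 3 genes most like MYC by r (each library at 10 counts or more); other genes were chosen after their values were seen. Alternatives used size factors of DESeq2 in edgeR, DESeq2 1.42.0 with its Wald test, a replicate block, filters of none and of 10 or more counts everywhere, and limma 3.58.1 (limma-trend) on FPKM with a pseudocount of 0.1 or 1, given 0.5 FPKM or more in 3 libraries. Others summed overlapping genes or left out each library. The tests were tested on simulated data. A planned comparison of member proteins was not done. Figures used matplotlib 3.10.9. Protein assays and xenografts were not analysed here.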

Additional observations from a re-analysis of the deposited data

How the results depend on the processing

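Depth did not limit the members, of which the scarcest, MYCL, had 112 to 212 counts per library, but 3 samples of each of 2 lines do, since one resistant line cannot stand for resistance in general. Counts past 2-fold were 776 higher and 312 lower by edgeR, 589 and 212 by limma-trend on log2(FPKM + 0.1), and 268 and 84 on log2(FPKM + 1), both from 13746 instead of 17531 genes and loci. The count of lower members, a description only, was 2 instead of 1 when genes overlapping on either strand were summed (chosen after seeing the data). The addition there was the sum of MXD3 with RAB24 and PRELID1, not MXD3 by itself. With each library left out, the count of lower members was 1 to 2. Among the lists, the lower co-activators numbered 8 with all libraries, 5 without a filter, 4 on log2(FPKM + 0.1) and 4 on log2(FPKM + 1), and 4 to 10 with each library left out, and the higher ones 0 to 1. With each library left out, the co-repressors numbered 0 to 1 higher and 5 to 8 lower, the higher transcript regulators 1 to 2, the higher glucose and amino acid genes 0 to 1, the lower repressed targets 0 to 1 and the lower MLX and Mondo targets 1 to 2. The cause was not tested. The share of MYC in its family was 63.7% in Huh7 P and 26.8% in Huh7 LR by CPM per kb of exon. In all, 369 of 396 values of counts and shares stayed within their limits, and of 826 values of single genes 800 kept direction and side of the threshold, 24 lost it, 2 gained it and 0 reversed. The labels share replicate numbers, but same-numbered libraries of the lines correlated in their deviations at only 0.029 to 0.032, too little to pair them; each library did correlate best with its own number, a hint from the data and not the design. With the replicate block, 783 genes and loci were called higher and 316 lower, and 4 members were higher and 1 lower.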
